A study of Homo sapiens with 7 samples.

Results

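The replication-dependent histone genes are the HIST genes that supply new histones while DNA is copied, and here they were taken as every listed gene whose symbol begins with HIST1H, HIST2H, HIST3H or HIST4H. The rule found 73 members among 33117 listed genes, each with 1 identifier. Of these, 8 encode or resemble linker histone H1, 16 H2A, 24 H2B, 13 H3 and 12 H4. Of the 73, 59 carry a HIST1 name, of which 58 lie in the cluster on chromosome 6 and 1, the pseudogene HIST1H2BPS3, on chromosome 13. Another 11 belong to HIST2 and 2 to HIST3 on chromosome 1, and 1 is HIST4H4 on chromosome 12. The GENCODE release 29 annotation classes 60 of them as protein coding and 13 as pseudogenes. The measurements are bulk RNA sequencing of 769-P, an established line of clear cell renal cell carcinoma, grown in RPMI medium with 10% serum. Latent metastatic (Lat-M) cells were sequenced as 2 libraries titled Lat-M2 and 2 titled Lat-M1, and 769-P PA cells as 3 libraries. The labels give no genotype or treatment for any group, do not say what separates Lat-M2 from Lat-M1 or what PA stands for, and do not say whether libraries of a group came from separate cultures, so a p-value reflects only how these libraries scatter, and that scatter may be technical.

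Replication-dependent histone genes lie in clusters, have no introns in most cases, and are transcribed at histone locus bodies under the coactivator NPAT during S phase. Most of their mRNAs end not in a poly(A) tail but in a conserved stem-loop, which is bound by SLBP and cut with the help of the U7 small nuclear ribonucleoprotein; some members can also be polyadenylated. H2A, H2B, H3 and H4 form the nucleosome core and H1 binds the linker DNA between nucleosomes.

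The stem-loop is shown because it is the element by which this mRNA class is recognised. Its variants also divide the members in which it was found. The consensus is the 16-base stretch with complementary 6-base arms around a 4-base loop held by the largest number of members in their GENCODE release 29 transcripts, and it was searched in all members with up to 2 mismatches. The 6-base stem arms are in capitals and the 4-base loop is in lower case, written as DNA on the mRNA strand.
consensus, as in HIST1H2BG and HIST1H2BH: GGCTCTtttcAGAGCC
as in HIST1H2BC and HIST1H2BD: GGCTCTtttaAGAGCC
as in HIST1H2AG: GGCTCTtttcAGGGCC
as in HIST1H3E: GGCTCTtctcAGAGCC
as in HIST1H4B, HIST1H4H and HIST4H4: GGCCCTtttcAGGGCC
The consensus was found in 13 members of types H2A, H2B and H3. The form of the last line was found in 4 members, all of type H4. Counting only G with C and A with T, it keeps 6 of 6 stem pairs and the HIST1H2AG form 5 of 6. The position not counted in the HIST1H2AG form sets T opposite G. The H4 form was carried by HIST1H4H, which fell in Lat-M1 cells, and by HIST4H4, which rose there. In 49 members no match was found in the annotated transcript. Many of these transcripts are short, such as 312 bases in HIST1H4D, 411 in HIST1H3B and 393 in HIST1H2AB. A transcript annotated without its 3′ end cannot show a stem-loop, so a missing match does not mean that the gene lacks it.

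Promoter sequences of 9 members whose levels changed are shown to let their elements be compared. Each is the 150 bases before the RefSeq start, 5′ to 3′ on the gene's strand, in build GRCh38.p14. Capitals mark the TATAAA box, the CCAAT box, the octamer ATTTGCAT known from H2B promoters, the GGTCCG word of the H4 element and the AAACACA word of H1 promoters, each searched on both strands. The first 4 are H4 genes, of which HIST1H4D and HIST1H4H fell in Lat-M1 cells and HIST1H4I and HIST4H4 rose. The next 3 are H2B genes, of which HIST1H2BB and HIST1H2BH fell and HIST1H2BJ rose, and the last 2 are the H1 genes HIST1H1B and HIST1H1D, which fell. These calls are on TPM. After the median-ratio scaling described below, HIST1H4I and HIST1H2BJ were not called (limma, adjusted p = 0.054 and 0.23, threshold 0.05).
HIST1H4D, chr6:26189113-26189262, minus strand: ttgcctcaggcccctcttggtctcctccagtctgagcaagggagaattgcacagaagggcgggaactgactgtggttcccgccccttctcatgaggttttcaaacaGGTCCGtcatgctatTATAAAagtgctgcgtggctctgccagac
HIST1H4H, chr6:26285535-26285684, minus strand: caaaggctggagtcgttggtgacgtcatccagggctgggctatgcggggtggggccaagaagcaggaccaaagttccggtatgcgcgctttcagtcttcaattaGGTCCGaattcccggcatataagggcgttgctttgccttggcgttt
HIST1H4I, chr6:27139132-27139281, plus strand: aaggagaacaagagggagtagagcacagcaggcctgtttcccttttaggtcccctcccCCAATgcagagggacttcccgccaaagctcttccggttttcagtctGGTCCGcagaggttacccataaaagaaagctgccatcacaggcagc
HIST4H4, chr12:14771132-14771281, minus strand: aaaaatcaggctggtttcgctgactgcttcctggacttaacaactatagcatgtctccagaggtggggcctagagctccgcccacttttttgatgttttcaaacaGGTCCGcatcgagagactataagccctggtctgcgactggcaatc
HIST1H2BB, chr6:26043714-26043863, minus strand: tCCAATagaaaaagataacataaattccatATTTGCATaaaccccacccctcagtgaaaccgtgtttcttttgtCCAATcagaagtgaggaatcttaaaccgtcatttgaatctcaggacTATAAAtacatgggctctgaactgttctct
HIST1H2BH, chr6:26251464-26251613, plus strand: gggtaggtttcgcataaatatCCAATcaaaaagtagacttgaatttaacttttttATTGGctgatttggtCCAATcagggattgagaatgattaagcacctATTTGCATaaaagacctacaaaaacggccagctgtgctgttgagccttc
HIST1H2BJ, chr6:27132796-27132945, minus strand: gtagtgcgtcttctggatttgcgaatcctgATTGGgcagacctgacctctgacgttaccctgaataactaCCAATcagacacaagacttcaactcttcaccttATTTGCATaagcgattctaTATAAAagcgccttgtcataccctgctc
HIST1H1B, chr6:27867589-27867738, minus strand: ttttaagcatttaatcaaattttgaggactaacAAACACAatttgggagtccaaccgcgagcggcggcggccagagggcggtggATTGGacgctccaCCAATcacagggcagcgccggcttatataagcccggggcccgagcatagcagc
HIST1H1D, chr6:26234988-26235137, minus strand: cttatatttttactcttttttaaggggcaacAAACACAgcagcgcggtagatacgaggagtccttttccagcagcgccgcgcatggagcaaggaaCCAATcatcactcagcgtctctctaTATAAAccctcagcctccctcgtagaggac
All 4 H4 promoters held GGTCCG, beginning 44 to 46 bases before the start, whether the gene fell or rose. The octamer began 49 bases before the start in HIST1H2BH, which fell, 47 in HIST1H2BJ, which rose, and 120 in HIST1H2BB, which fell. Both H1 promoters held AAACACA, beginning 117 and 119 bases before the start.

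Over 300 bases (250 before to 50 after the start), 40 tested members had a promoter in the RefSeq table. GGTCCG was found in 6 of 6 H4 promoters, against 11.28% of the 35116 promoters in the table. The octamer was found in 9 of 10 H2A promoters and 11 of 13 H2B promoters, against 1.77% of all promoters. Many of these H2A and H2B genes face each other, with 219 to 331 bases between annotated starts. Their windows overlap, so 1 octamer can be counted for both genes. CCAAT was found in 35 of the 40, against 34.61%, and in 1 of the 6 H4 promoters, that of HIST1H4I. AAACACA was found in 4 of 4 H1 promoters, against 5.64%, and TATAAA in 26 of the 40, against 11.53%. These matches describe the sequences and are not evidence of binding.

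Values are the authors' TPM, a level per transcript length that is scaled to the same total in each library, so depth is unknown. The signal recognition particle and 7SK RNAs with RMRP (RN7SL1, RN7SL2, RN7SK and RMRP) together took 228576 and 276971 TPM in Lat-M2 libraries, 218535 and 186052 in Lat-M1 libraries, and 317897, 303387 and 294793 in PA libraries. Their part in the values below was not tested beyond a rescaling. The main counts are therefore given on TPM and after median-ratio scaling, which sets the median gene equal between libraries. Values of single genes are on TPM unless scaling is named. The median gene was 0.14 log2 higher in Lat-M2 than in PA cells and 0.16 higher in Lat-M1 than in PA cells on TPM, and within 0.01 of 0 after scaling. PA library 1 stood apart from the other PA libraries for many members, and results that rest on it are given without it as well. Of 9 renal line markers, 7 had a mean of at least 1 TPM, with PAX8 between 65.7 and 87.9 TPM, while CA9 was at or near 0. The 8 listed markers of leukocytes, endothelium, erythroid cells and liver summed to 41.9 and 39.7 TPM in Lat-M2, 14.2 and 15.6 in Lat-M1, and 45.6, 48.3 and 46.2 in PA libraries, nearly all of it CD68; CDH5, an endothelial marker, was listed at 0. CD68 was thus lowest in Lat-M1 libraries, and its part in the results was not tested.

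The histone genes were among the most abundant RNAs and were either high or nearly absent. Over all 7 libraries, 44 members had a mean of at least 12.0 TPM and the other 29 a mean of at most 1.26 TPM, with no member between. Of all listed genes, 12 of the 100 with the highest mean were members. HIST1H4C, an H4 gene, had the highest mean at 2492 TPM, followed by the linker histone gene HIST1H1C at 2228, the H4 genes HIST1H4D at 1900 and HIST1H4B at 1646, the H3 gene HIST1H3B at 1620, the linker histone gene HIST1H1E at 1295 and the H2B gene HIST1H2BG at 1208 TPM. TPM is per transcript length, but RNA without a poly(A) tail and reads shared by near-identical genes may be measured unequally, so this order is one of deposited values. Among the 44, H2A genes ran to 954 TPM (HIST1H2AE), and the lowest was HIST1H2BB at 12.0 TPM.

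**Figure D1:**
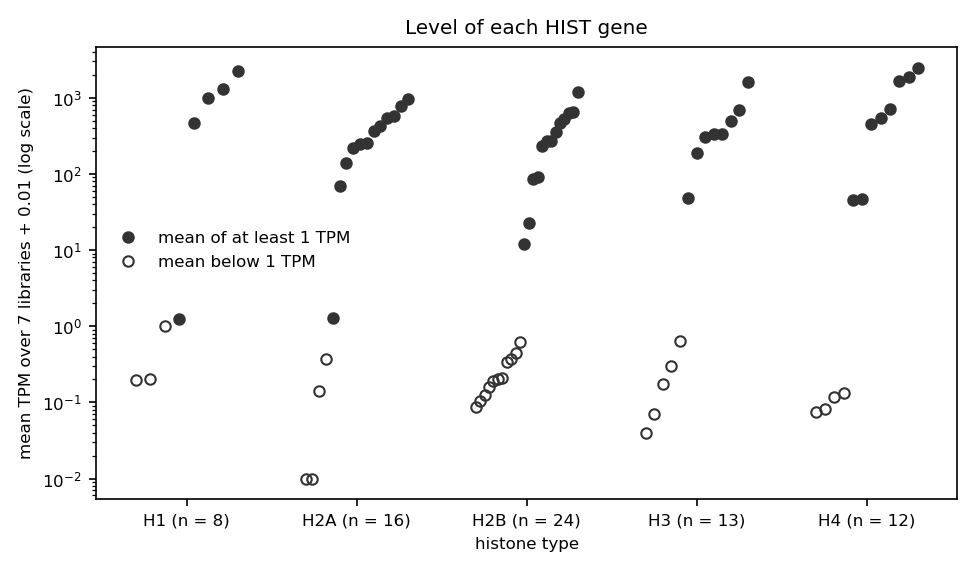
Each point is the mean TPM of 1 HIST gene over 7 libraries, with 0.01 added, on a log axis, by histone type; filled points have a mean of at least 1 TPM. The 44 high members lie at 12.0 TPM or more and the 29 low ones at 1.26 TPM or less.

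The 29 low members comprise 13 pseudogenes and 16 protein-coding genes, and the split was drawn after the values were seen. Of the 16, 10 had at least 95% of their 50-base stretches found in no other annotated transcript, so few of their reads could be shared with an annotated copy. Of such stretches HIST1H4K had 0%, HIST1H2AJ 16.3% and HIST1H2AI 37.7%, and their values are uncertain. The 10 include HIST1H1A and the genes HIST1H2AA, HIST1H2BA and HIST1H1T, which are known for testis-specific histones. HIST1H2AJ and HIST3H2A were listed at 0 in all 7 libraries. A run of 6 listed neighbours in the third part of the HIST1 cluster (HIST1H4PS1, HIST1H2BL, HIST1H2AI, HIST1H3H, HIST1H2AJ and HIST1H4K) did not exceed 0.384 TPM in any library, although HIST1H2BN and HIST1H2AK next to it, chosen after their values were seen, had 19.1 to 27.1 and 50.8 to 83.5 TPM. HIST1H2AK has no stretch of its own, so its value is uncertain. Of 88 histone genes of these clusters in the annotation, 72 are listed, and the others are not analysed here. The 27 members with a mean below 1 TPM were not tested, which left 46.

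Lat-M2 libraries held 28575 and 28196 TPM of summed histone RNA, Lat-M1 libraries 24234 and 25050, and PA libraries 24318, 26923 and 26297. The Lat-M2 libraries lay above all others, and the Lat-M1 libraries overlapped those of PA. The log2 ratio of group means was 0.14 for Lat-M2 over PA, -0.07 for Lat-M1 over PA and 0.20 for Lat-M2 over Lat-M1. After scaling these ratios were -0.02, -0.25 and 0.23, so the ratio of Lat-M2 to PA changed sign and the other 2 ratios kept theirs. Without PA library 1 the TPM ratios were 0.09 for Lat-M2 over PA and -0.11 for Lat-M1 over PA. In bulk RNA, fewer cells in S phase and less histone RNA per cell cannot be told apart.

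By type, H4 RNA was lower in both Lat-M1 libraries than in all others on both scales, and H1 RNA after scaling. H4 genes summed to 8084 and 8604 TPM in Lat-M2 libraries, 6731 and 6459 in Lat-M1 libraries, and 8546, 8154 and 8220 in PA libraries. The log2 ratio of Lat-M1 to PA was -0.33 on TPM and -0.51 after scaling. H1 genes summed to 5769 and 5328 TPM in Lat-M2, 4587 and 4814 in Lat-M1, and 4458, 4948 and 4861 in PA libraries, where Lat-M1 and PA overlapped. After scaling they summed to 5293 and 5309 in Lat-M2, 4442 and 4391 in Lat-M1, and 4811, 5326 and 5036 in PA libraries, and the log2 ratio of Lat-M1 to PA was -0.20, against -0.02 on TPM. H2A, H2B and H3 sums of Lat-M1 cells overlapped those of PA cells on both scales. After scaling, this overlap rested on PA library 1 alone. Scaled H2A sums were 4258 and 4262 in Lat-M1 and 4040, 5080 and 4654 in PA libraries. Scaled H2B sums were 4618.2 and 4549.5, against 4532.3, 5275.0 and 4866.5. Scaled H3 sums were 3632 and 3757, against 3637, 4522 and 4170. Without PA library 1, both Lat-M1 libraries lay below PA for each of these types after scaling. H4 made up 28.3% and 30.5% of all histone TPM in Lat-M2 libraries, 27.8% and 25.8% in Lat-M1 libraries, and 35.1%, 30.3% and 31.3% in PA libraries. These shares do not depend on the scaling, and the 35.1% belongs to PA library 1.

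**Figure D2:**
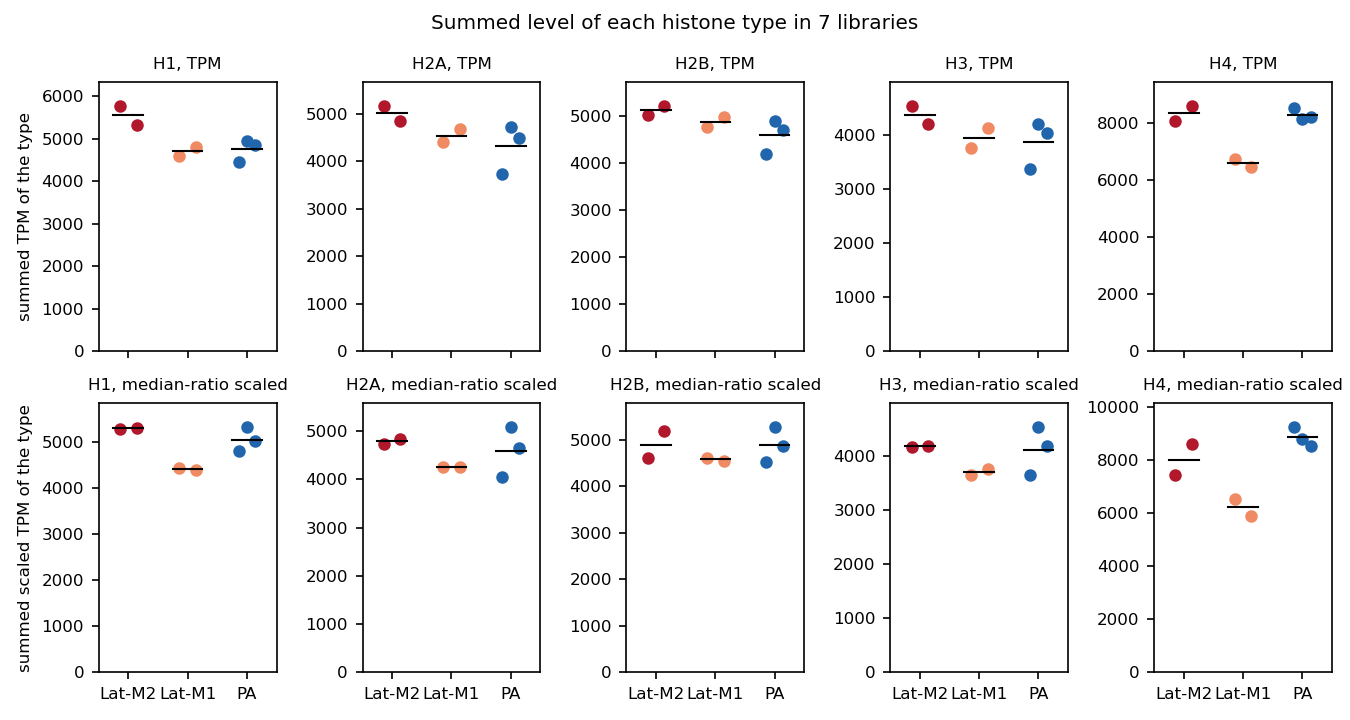
Summed TPM of the genes of each histone type in every library (points) with the group mean (line), on deposited TPM above and after median-ratio scaling below; axes start at 0. The 2 Lat-M1 libraries lie below all others for H4 on both scales.

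In Lat-M1 against PA cells, 15 of the 46 tested members changed, 6 up and 9 down (limma, adjusted p below 0.05). That is 32.6% of the members tested, against 44.8% of all 16724 genes tested. The rises were 13.0% of the members, against 33.2% of all genes, and the falls 19.6%, against 11.6%. After scaling, 1 member rose and 17 fell, or 2.17% and 37.0%, against 23.9% and 23.0% of all genes, and all 9 that fell on TPM also fell after scaling. Lat-M1 and PA libraries did not overlap for 14 members above and 14 below, or 30.4% each, against 48.9% and 19.0% of all genes. The median log2 fold change of the 46 was 0.02, against 0.16 over all genes, and -0.16 after scaling. With either Lat-M1 library left out, fewer members and fewer of all genes were called. Without Lat-M1 library 1, the median log2 fold change of the tested members was 0.04, against 0.20 over all genes. Without Lat-M1 library 2, it was 0.007, against 0.12. In such fits the lone library is assumed to vary like the libraries of the other groups.

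The H4 genes HIST1H4C, HIST1H4D and HIST1H4H fell in Lat-M1 cells. HIST1H4C had 2622 and 2736 TPM in Lat-M2 libraries, 2010 and 1789 in Lat-M1 libraries, and 2908, 2656 and 2720 in PA libraries. The Lat-M1 values lay below all others, at 0.688 times the PA mean (log2 fold change -0.54 ± 0.07 SE, adjusted p = 0.00085). HIST1H4D had 1937 and 2149 TPM in Lat-M2, 1480 and 1429 in Lat-M1, and 2196, 1999 and 2108 in PA libraries. It changed almost alike in Lat-M1 against PA cells, at 0.692 times the PA mean (log2 fold change -0.53 ± 0.07 SE, adjusted p = 0.00076). HIST1H4H, chosen after its values were seen, had 379 and 374 TPM in Lat-M1 and 518, 442 and 472 in PA libraries (log2 fold change -0.34, adjusted p = 0.029). HIST1H4B, with 1547 and 1550 TPM in Lat-M1 and 1632, 1652 and 1559 in PA libraries, passed the test after scaling but not on TPM (log2 fold change -0.06, adjusted p = 0.40, and -0.24 after scaling).

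The linker histone gene HIST1H1B fell as well, while HIST1H1C and HIST1H1E did not pass the test on TPM. HIST1H1B had 1255 and 1136 TPM in Lat-M2, 693 and 762 in Lat-M1, and 953, 1013 and 1044 in PA libraries. Every Lat-M1 value lay below every PA value, and every Lat-M2 value above (Lat-M1 over PA log2 fold change -0.46 ± 0.07 SE, adjusted p = 0.0020). HIST1H1E had 1348 and 1454 TPM in Lat-M1 and 943, 1246 and 1257 in PA libraries, a log2 fold change of 0.30 with adjusted p = 0.13. HIST1H1C had 2160 and 2211 TPM in Lat-M1 and 2101, 2248 and 2123 in PA libraries. Its log2 fold change was 0.02 on TPM and -0.16 after scaling, where it passed the test (adjusted p = 0.046). The H1 genes thus did not change alike in Lat-M1 cells.

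The neighbours HIST1H3F and HIST1H2BH, transcribed away from each other with 1046 bases between their annotated starts, fell by nearly the same amount. HIST1H3F, an H3 gene, had 618 and 583 TPM in Lat-M2, 344 and 375 in Lat-M1, and 468, 571 and 557 in PA libraries (Lat-M1 over PA log2 fold change -0.56 ± 0.09 SE, adjusted p = 0.0027). HIST1H2BH, an H2B gene, had 727 and 763 TPM in Lat-M2, 461 and 469 in Lat-M1, and 622, 765 and 716 in PA libraries (log2 fold change -0.59 ± 0.09 SE, adjusted p = 0.0015). In both genes the Lat-M1 libraries lay below all 5 others, and the Lat-M2 and PA libraries overlapped for HIST1H2BH.

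The H2B gene HIST1H2BB showed the largest fall among the members, at the lowest level of the expressed members. It had 11.0 and 10.9 TPM in Lat-M2, 5.03 and 5.68 in Lat-M1, and 19.3, 14.9 and 17.1 in PA libraries. The 3 groups did not overlap. The Lat-M1 mean was 0.313 times the PA mean (log2 fold change -1.51 ± 0.11 SE, adjusted p = 4.8e-05), and the Lat-M2 mean was 0.637 times the PA mean (log2 fold change -0.60 ± 0.11 SE, adjusted p = 0.017). Without Lat-M2 library 1 the second difference missed the threshold (log2 fold change -0.61, adjusted p = 0.096). Its neighbour HIST1H2AB, chosen after its values were seen, had 485 and 455 TPM in Lat-M2, 425 and 421 in Lat-M1, and 367, 442 and 411 in PA libraries and passed the test in no pair. The H2A gene HIST2H2AB, also chosen after its values were seen, fell in Lat-M1 cells with 209 and 216 TPM, against 245, 270 and 264 in PA libraries (log2 fold change -0.29, adjusted p = 0.0087); its exons overlap those of BOLA1.

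**Figure D3:**
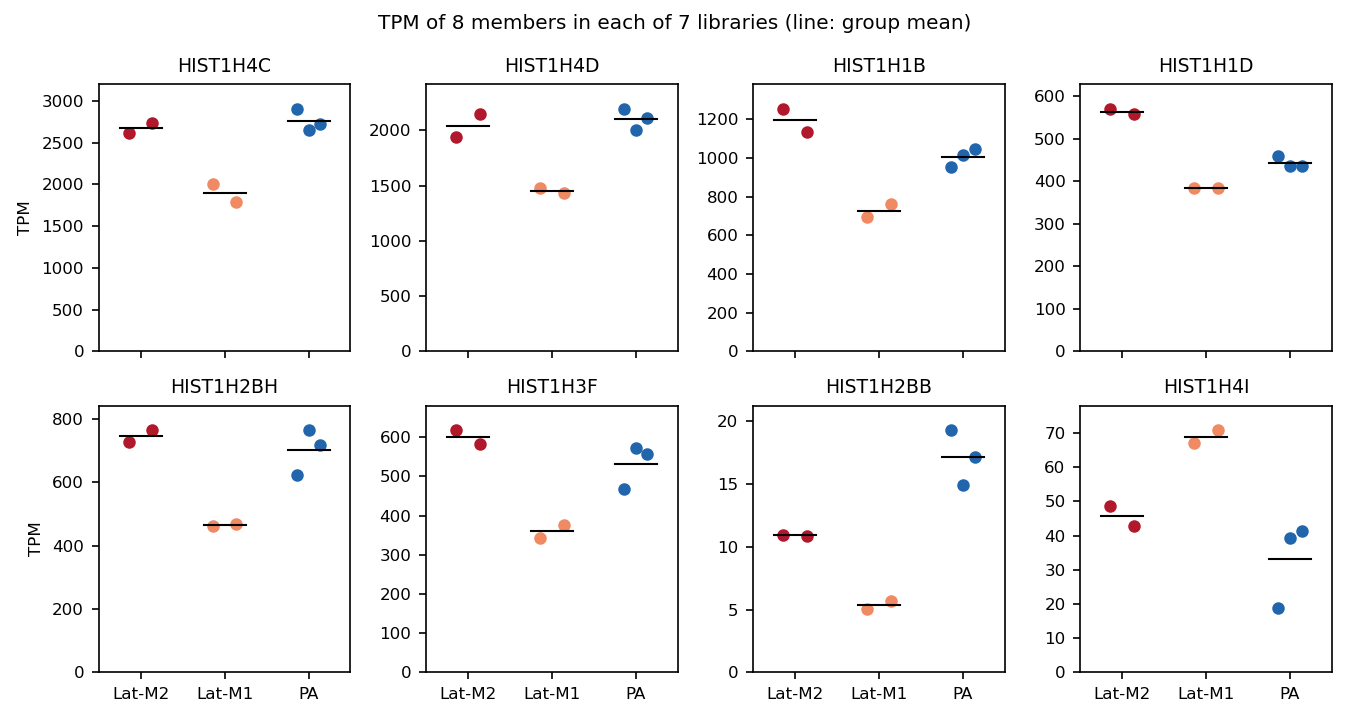
TPM of 8 members in every library (points) with group means (lines); each axis starts at 0. Lat-M1 libraries are the lowest in the first 7 panels and the highest in the panel of HIST1H4I, where PA library 1 lies at 18.8 TPM.

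Genes of the small middle part of the HIST1 cluster had higher levels in Lat-M1 than in PA cells on TPM. The 5 listed genes there are HIST1H2BJ, HIST1H2AG, HIST1H4I, HIST1H2BK and HIST1H2AH, separated from the rest by gaps of over 200 kb in GENCODE release 29. They summed to 1640 and 1484 TPM in Lat-M2, 1649 and 1750 in Lat-M1, and 1014, 1436 and 1351 in PA libraries. All 5 had positive log2 fold changes in Lat-M1 against PA cells on both scales, with a median of 0.39 on TPM, against 0.16 over all genes. On TPM 4 of the 5 passed the test, against 33.2% of all genes called higher, and none did after scaling. The H4 gene HIST1H4I had 48.6 and 42.7 TPM in Lat-M2, 67.0 and 70.9 in Lat-M1, and 18.8, 39.3 and 41.4 in PA libraries. The Lat-M1 mean was 2.08 times that of PA (log2 fold change 1.11 ± 0.33 SE, adjusted p = 0.036). After scaling, the log2 fold change was 0.94 with adjusted p = 0.054, and without PA library 1 it was 0.76 on TPM with adjusted p = 0.00067. It missed the threshold without either Lat-M1 library or either Lat-M2 library (log2 fold changes 1.07 to 1.15, adjusted p 0.050 to 0.15).

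The genes HIST1H2BJ, HIST1H2BK and HIST1H2AG beside it, of types H2B and H2A, rose by smaller amounts on TPM. HIST1H2BJ, chosen after its values were seen, had 305 and 308 TPM in Lat-M1 and 217, 262 and 254 in PA libraries (log2 fold change 0.33, adjusted p = 0.017). HIST1H2BK had 385 and 421 TPM in Lat-M1 and 259, 346 and 325 in PA libraries (log2 fold change 0.39, adjusted p = 0.040). Only 25.9% of the 50-base stretches of HIST1H2BK were found in no other annotated transcript, so its value is uncertain. HIST1H2AG had 244 and 264 TPM in Lat-M1 and 167, 219 and 202 in PA libraries (log2 fold change 0.38, adjusted p = 0.042). HIST1H2AH, with 648 and 686 TPM in Lat-M1 and 352, 570 and 530 in PA libraries, had a log2 fold change of 0.49 that missed the threshold (adjusted p = 0.11). In all of these the lowest PA value was that of library 1, without which HIST1H2AG missed the threshold (log2 fold change 0.27, adjusted p = 0.062). Both HIST1H2BK and HIST1H2AG also missed it without PA library 3 or either Lat-M1 library, and HIST1H2BK without either Lat-M2 library (adjusted p up to 0.20 in each gene). After scaling, HIST1H2BK and HIST1H2AG had log2 fold changes of 0.21 and 0.20 and missed it too.

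Elsewhere, HIST4H4 and HIST1H2BD also rose in Lat-M1 cells. HIST4H4, the solitary H4 gene of chromosome 12, had 50.1 and 46.5 TPM in Lat-M2, 53.5 and 57.1 in Lat-M1, and 31.6, 42.9 and 38.9 in PA libraries. Its rise in Lat-M1 cells held on both scales (log2 fold change 0.55 ± 0.12 SE, adjusted p = 0.0096, and 0.37 with adjusted p = 0.040 after scaling). Without Lat-M1 library 2 it missed the threshold on TPM (log2 fold change 0.50, adjusted p = 0.071). HIST1H2BD had 707 and 732 TPM in Lat-M1 and 514, 647 and 594 in PA libraries, a log2 fold change of 0.30 (adjusted p = 0.034) that was 0.12 and uncalled after scaling (adjusted p = 0.33). It missed the threshold when any library other than PA library 2 was left out (adjusted p 0.051 to 0.16). In the third part of HIST1, all 7 tested genes had negative log2 fold changes in Lat-M1 against PA cells (median -0.15). HIST1H1B was the 1 of the 7 that passed the test on TPM, against 11.6% of all genes called lower. After scaling 4 passed it, against 23.0% of all genes.

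**Figure D4:**
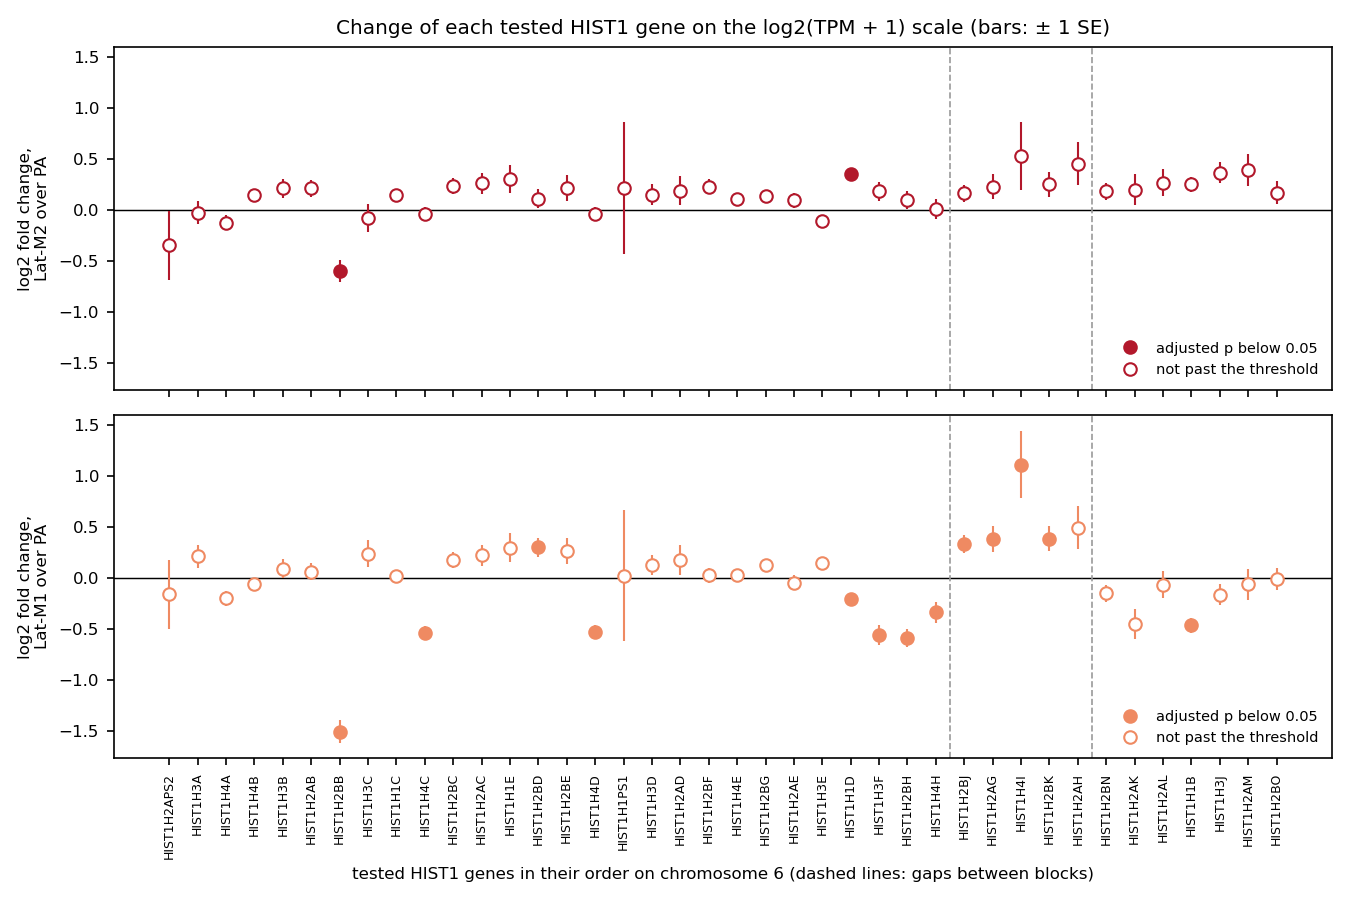
Log2 fold change (± 1 SE) of the 40 tested HIST1 genes in their order on chromosome 6, for Lat-M2 over PA above and Lat-M1 over PA below; filled points have an adjusted p below 0.05. In the lower panel the 5 genes between the dashed lines lie above 0 and the 7 genes to their right below it.

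In Lat-M2 against PA cells, 2 of the 46 tested members changed, 1 up and 1 down, or 4.35%, against 14.9% of all genes tested (12.7% higher and 2.24% lower). After scaling none rose and 2 fell, against 7.44% and 8.42% of all genes. Lat-M2 and PA libraries did not overlap for 22 members above and 2 below, or 47.8% and 4.35%, against 42.2% and 7.59% of all genes. The median log2 fold change of the 46 was 0.19, against 0.14 over all genes, and 0.03 after scaling. Without Lat-M2 library 1 fewer members and fewer of all genes were called, and without Lat-M2 library 2 more of both. The median log2 fold changes of the tested members were then 0.16 and 0.20, against 0.08 and 0.19 over all genes. The linker histone gene HIST1H1D rose, with 571 and 558 TPM in Lat-M2, 385 and 385 in Lat-M1, and 460, 435 and 436 in PA libraries. The 3 groups did not overlap. HIST1H1D was 1.27 times as high in Lat-M2 as in PA cells (log2 fold change 0.35 ± 0.05 SE, adjusted p = 0.0091) and lower in Lat-M1 than in PA cells (log2 fold change -0.20 ± 0.05 SE, adjusted p = 0.015). After scaling the first difference missed the threshold (log2 fold change 0.19, adjusted p = 0.064) and the second did not (log2 fold change -0.38, adjusted p = 0.0018). The second missed it on TPM without either Lat-M1 library or PA library 1 (log2 fold changes -0.18 to -0.21, adjusted p 0.059 to 0.092).

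HIST1H2BB was the gene that fell on TPM, as given above, and after scaling the H3 gene HIST1H3E fell too. HIST1H3E had 44.8 and 44.0 TPM in Lat-M2, 54.0 and 52.6 in Lat-M1, and 47.4, 48.4 and 48.7 in PA libraries. Its Lat-M2 values lay below and its Lat-M1 values above all PA values. The log2 fold change of Lat-M2 over PA was -0.12 (adjusted p = 0.16), and -0.27 after scaling (adjusted p = 0.019). HIST2H3D, the highest H3 gene of the HIST2 cluster, overlapped between groups and passed no test. It had 262 and 194 TPM in Lat-M2, 167 and 195 in Lat-M1, and 104, 188 and 204 in PA libraries. Only 19.6% of its 50-base stretches were found in no other annotated transcript, so its value is uncertain.

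In Lat-M2 against Lat-M1 cells, 14 of the 46 tested members changed, 13 up and 1 down, or 30.4%, against 36.0% of all genes tested. The 13 are 28.3% of the members, against 16.0% of all genes called higher, and the 1 is 2.17%, against 20.1% called lower. After scaling there were again 13 up and 1 down, of which 11 and 1 were also called on TPM, against 21.6% and 22.6% of all genes. The 2 pairs did not overlap for 26 members above and 8 below, or 56.5% and 17.4%, against 32.8% and 35.6% of all genes. The median log2 fold change of the 46 was 0.14, against -0.01 over all genes. HIST1H2BB differed most, with a Lat-M2 mean 2.04 times the Lat-M1 mean (log2 fold change 0.91 ± 0.12 SE, adjusted p = 0.0011). HIST1H3F followed at 1.67 times (log2 fold change 0.74, adjusted p = 0.0016), HIST1H1B at 1.64 times (log2 fold change 0.72, adjusted p = 0.00055) and HIST1H2BH at 1.60 times (log2 fold change 0.68, adjusted p = 0.0016). HIST1H4C was 1.41 and HIST1H4D 1.40 times as high in Lat-M2 as in Lat-M1 cells, with adjusted p of 0.0026 and 0.0023. HIST1H4H and HIST1H4B were called higher on TPM (adjusted p = 0.044 and 0.028) but not after scaling (adjusted p = 0.085 and 0.054). HIST1H3E was the gene that was lower in Lat-M2 cells (log2 fold change -0.26, adjusted p = 0.0092). Without Lat-M1 library 1, fewer members and fewer of all genes were called, and HIST1H3E missed the threshold (log2 fold change -0.24). The median log2 fold change of the tested members was then 0.10, against -0.05 over all genes. Without Lat-M1 library 2, that median was 0.17, against 0.03, and fewer of both were called as well.

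With the 4 Lat-M libraries as 1 group against PA, 0 of the 46 members were called (limma, adjusted p below 0.05), against 2.90% of all genes tested (2.51% higher and 0.389% lower). After scaling 0 were called, against 1.25% of all genes (0.677% higher and 0.569% lower). This fit counts the difference between Lat-M2 and Lat-M1 as spread. As a contrast of the mean of the Lat-M pairs within the fit of 3 groups, 8 members were called, 4 up and 4 down. Of all 16724 genes tested, that contrast called 5040 up and 1066 down. With a correlation estimated within the 3 sets of libraries, 0 members were called, against 4 up and 1 down of all genes.

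**Figure D5:**
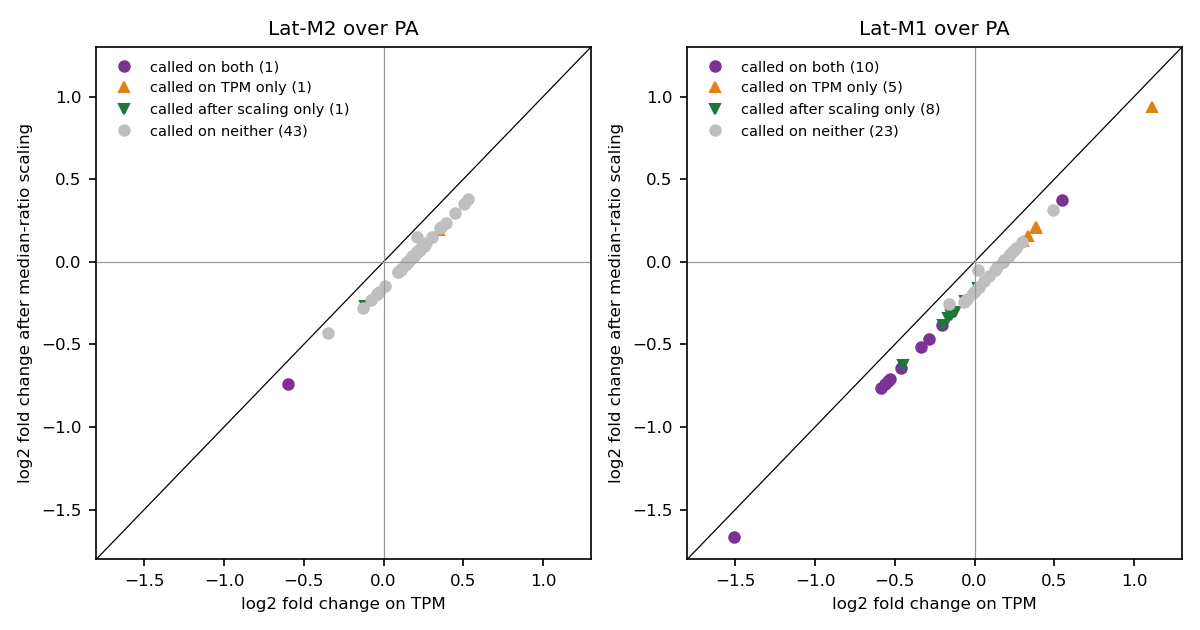
Log2 fold change of the 46 tested members over PA on TPM (horizontal) and after median-ratio scaling (vertical), with the line of equality; symbols show on which scale the adjusted p was below 0.05. For Lat-M1, 10 members were called on both scales, 5 on TPM alone and 8 after scaling alone.

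Each gene's share of its own type does not depend on the scaling of the libraries. HIST1H1B was 21.8% and 21.3% of H1 TPM in Lat-M2, 15.1% and 15.8% in Lat-M1, and 21.4%, 20.5% and 21.5% in PA libraries. HIST1H2BH was 14.5% and 14.6% of H2B TPM in Lat-M2, 9.66% and 9.41% in Lat-M1, and 14.8%, 15.6% and 15.2% in PA libraries. HIST1H3F was 13.6% and 13.9% of H3 TPM in Lat-M2, 9.17% and 9.11% in Lat-M1, and 13.9%, 13.6% and 13.8% in PA libraries. For these 3 genes both Lat-M1 shares lay below all others. HIST1H4C was 32.4% and 31.8% of H4 TPM in Lat-M2, 29.9% and 27.7% in Lat-M1, and 34.0%, 32.6% and 33.1% in PA libraries. HIST1H4B took a larger share in Lat-M1 libraries, 23.0% and 24.0%, against 19.1%, 20.3% and 19.0% in PA libraries, so the H4 genes changed unequally. HIST1H4I was 0.601% and 0.496% of H4 TPM in Lat-M2, 0.995% and 1.10% in Lat-M1, and 0.219%, 0.482% and 0.504% in PA libraries.

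Genes that face each other head to head, with annotated starts within 1000 bases, formed 7 pairs in which both members were tested. In Lat-M1 over PA cells, HIST1H2BJ and HIST1H2AG had log2 fold changes of 0.33 and 0.38, HIST1H2BK and HIST1H2AH 0.39 and 0.49, and HIST1H2BC and HIST1H2AC 0.18 and 0.22. HIST2H2BE and HIST2H2AC, a pair of the HIST2 cluster, had -0.13 and -0.12, and HIST1H2AM and HIST1H2BO -0.06 and -0.01. HIST1H2AD and HIST1H2BF had 0.18 and 0.03, and HIST1H2BG and HIST1H2AE 0.13 and -0.04. Of 50-base stretches found in no other annotated transcript, HIST1H2AD had 2.0%, HIST1H2AM 13.7% and HIST1H2BK 25.9%, so their values are uncertain. Both genes passed the test on TPM in 1 of these pairs, HIST1H2BJ with HIST1H2AG.

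The 6 members known from other cells to make polyadenylated forms were HIST1H1C, HIST1H2AC, HIST1H2BC, HIST1H2BD, HIST1H2BK and HIST2H2BE. They summed to 15.3% and 15.1% of all histone TPM in Lat-M2, 17.0% and 17.2% in Lat-M1, and 14.8%, 15.2% and 14.8% in PA libraries. Their share was thus highest in Lat-M1 libraries. In Lat-M1 against PA cells, 2 of the 6 rose and none fell on TPM (median log2 fold change 0.20), against 33.2% and 11.6% of all genes and a median of 0.16. After scaling none rose and 2 fell, HIST1H1C and HIST2H2BE, against 23.9% and 23.0% of all genes. Of the 40 other tested members, 4 rose and 9 fell on TPM (median -0.01), and 1 rose and 15 fell after scaling. HIST1H2AC had 250 and 274 TPM in Lat-M1 and 194, 241 and 241 in PA libraries, and HIST1H2BC 529 and 579 in Lat-M1 and 450, 505 and 515 in PA libraries. Neither passed a test in any pair. In Lat-M2 against PA cells none of the 6 was called on TPM (median log2 fold change 0.19), against 14.9% of all genes. A list of 19 small RNAs known to lack a poly(A) tail included the 4 structural RNAs. Of the 19, 2 rose and 8 fell in Lat-M1 against PA cells on TPM (median log2 fold change -0.30). After scaling 1 rose and 9 fell. On TPM 5 were higher and 0 lower in Lat-M2 than in Lat-M1 cells, against 16.0% and 20.1% of all genes. What part RNA selection had in these values was not tested.

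Among 20 genes that transcribe or process histone mRNA, SLBP, the stem-loop binding protein, was the 1 that fell in Lat-M1 against PA cells on TPM, while 6 rose, against 11.6% of all genes lower and 33.2% higher. After scaling 5 fell, SLBP among them, and 3 rose, against 23.0% and 23.9% of all genes. SLBP had 135 and 115 TPM in Lat-M2, 70.4 and 77.4 in Lat-M1, and 130, 125 and 130 in PA libraries. The Lat-M1 values lay below all others (log2 fold change -0.79 ± 0.08 SE, adjusted p = 0.00026, and -0.96 after scaling), and Lat-M2 cells were higher than Lat-M1 cells (0.74 ± 0.09 SE, adjusted p = 0.00072). In Lat-M2 over PA cells the log2 fold change of SLBP was -0.04 on TPM (adjusted p = 0.74). After scaling it was -0.195, where SLBP passed the test (adjusted p = 0.035). NPAT, the histone locus body coactivator, had 14.2 and 13.5 TPM in Lat-M2, 10.9 and 11.2 in Lat-M1, and 12.3, 11.8 and 12.5 in PA libraries, and was higher in Lat-M2 than in Lat-M1 cells (log2 fold change 0.30, adjusted p = 0.013). Its log2 fold change in Lat-M1 over PA cells was -0.13 (adjusted p = 0.13), and -0.29 after scaling, where it passed (adjusted p = 0.0023). CASP8AP2 (FLASH), a partner in 3′ end cutting, passed no test. LSM11, a protein of the U7 particle, rose in Lat-M1 over PA cells (0.51, adjusted p = 0.0012) and in Lat-M2 over PA cells (0.40, adjusted p = 0.017). SNRPD3, another protein of that particle and of the spliceosome, rose in Lat-M1 cells, with 141 and 153 TPM, against 107, 105 and 103 in PA libraries. The median of the list was 0.05 for Lat-M1 over PA, against 0.16 over all genes.

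Replication-independent histones are made outside S phase as well. Of 11 tested, 5 rose and 2 fell in Lat-M1 against PA cells on TPM, against 33.2% and 11.6% of all genes, and 3 rose and 4 fell after scaling, against 23.9% and 23.0%. In Lat-M2 against PA cells 1 rose and 0 fell on TPM, against 12.7% and 2.24% of all genes. After scaling 1 rose and 1, H2AFZ, fell, against 7.44% and 8.42%. H2AFZ, the H2A.Z gene, had 738 and 676 TPM in Lat-M2, 978 and 1049 in Lat-M1, and 684, 686 and 706 in PA libraries (Lat-M1 over PA log2 fold change 0.55, adjusted p = 0.00038). CENPA, the centromeric H3 gene, rose in Lat-M1 cells as well (0.33, adjusted p = 0.0017; 0.16 and adjusted p = 0.051 after scaling). H2AFY2, a macroH2A gene, had 15.7 and 15.7 TPM in Lat-M2, 0.428 and 0.445 in Lat-M1, and 12.0, 13.4 and 10.7 in PA libraries, a log2 fold change of -3.18 in Lat-M1 over PA cells (adjusted p = 9.8e-07). H2AFX, whose mRNA has both a stem-loop and a polyadenylated form, had 54.5 and 47.6 TPM in Lat-M2, 37.1 and 40.8 in Lat-M1, and 39.9, 49.3 and 49.8 in PA libraries. It was higher in Lat-M2 than in Lat-M1 cells, with adjusted p = 0.0498 on TPM and 0.019 after scaling. H3F3B, an H3.3 gene, rose in Lat-M1 cells on TPM (0.19, adjusted p = 0.030) but not after scaling (0.02, adjusted p = 0.69), and H3F3A, the other, passed no test. Member H3 genes held 14.7 and 14.8 times the TPM of H3F3A and H3F3B together in Lat-M2, 12.4 and 13.0 times in Lat-M1, and 12.4, 15.7 and 14.7 times in PA libraries.

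Genes of the cell cycle were described by the same counts, to be read against all genes, of which 33.2% rose and 11.6% fell in Lat-M1 against PA cells on TPM and 23.9% and 23.0% after scaling. Of 34 S phase genes, 17 rose and 4 fell in Lat-M1 against PA cells on TPM, and 10 rose and 10 fell after scaling; SLBP is 1 of those that fell. TK1, CDC45, FEN1 and MCM3 were the 4 risers with the smallest p (log2 fold changes 0.69, 0.61, 0.62 and 0.56), and GINS1 fell (-0.39, adjusted p = 0.0034). PCNA, the replication clamp, had 727 and 618 TPM in Lat-M2, 745 and 802 in Lat-M1, and 671, 712 and 719 in PA libraries and passed no test on TPM; after scaling it was lower in Lat-M2 than in PA and Lat-M1 cells (log2 fold changes -0.22 and -0.18, adjusted p = 0.029 for both). MKI67, the Ki-67 gene, rose in Lat-M1 against PA cells on TPM (log2 fold change 0.28, adjusted p = 0.017). Of 22 G2 and mitosis genes, 10 rose and 3 fell on TPM, and 5 rose and 7 fell after scaling. Of 20 histone chaperone genes, 8 rose and 2 fell on TPM, and 5 rose and 5 fell after scaling. Among those that fell on both scales was ASF1A, a chaperone of H3 and H4, with 36.3 TPM on average in Lat-M2, 40.4 in Lat-M1 and 46.2 in PA cells. ASF1A also fell in Lat-M2 against PA cells (log2 fold change -0.34, adjusted p = 0.016). It was the 1 of 20 that did on TPM, where 2.24% of all genes were lower in Lat-M2 than in PA cells. After scaling 5 of 20 did, against 8.42% of all genes.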

How the data were processed

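Total RNA of 769-P cells (7 libraries) was sequenced after a TruSeq RNA v2 or NEBNext Ultra preparation, per the labels' protocols; which kit served which library is not given in the sources used here. TopHat2 2.2.4 and build hg19 are named per the submitters' processing notes; the quantifier, annotation and filters are not given in the sources used here. The deposited values are the authors' TPM, which keep no depth, so no counting interval is given. Most histone mRNAs have no poly(A) tail, so how RNA was selected could change their measured levels; whether it differed between libraries is not given in the sources used here.

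The members and gene lists were chosen with earlier results of these data known. Where a symbol has several identifiers, the member is the one with the highest mean. log2(TPM + 1) of the 16724 identifiers with a mean of at least 1 TPM was fitted with limma 3.58.1 (trend and robust options, R 4.3.3) over the 3 groups, with Benjamini-Hochberg adjustment over all and a threshold of 0.05; fold changes on this scale understate those of low genes. All identifiers were kept in the fit after a first version with 1 identifier per symbol had been seen. The fit was also run after median-ratio scaling (16700 identifiers), and the scripts were tested on simulated data. In a simulated comparison of Lat-M1 with PA, 34.1% of log2 changes of -0.5 and 28.3% of those of 0.5 were recovered. For changes of -1 and 1 it was 77.2% and 69.8%. There were 7 false calls. Alternatives were another pseudocount (0.1), no filter, a minimum mean of 5 TPM, removal of the 4 structural RNAs, the sum of a symbol's identifiers, each library left out and a block for the replicate number. The rule for named members took the 15 with the highest mean, the highest of each type in each cluster, the 4 called members with the largest rise and the 4 with the largest fall in each pair, and the polyadenylated ones; others are marked as chosen after their values were seen. In other lists it took up to 4 called genes with the smallest p in each direction, plus SLBP, NPAT, CASP8AP2, H3F3A, H3F3B, H2AFX, H2AFZ, CENPA, MKI67 and PCNA. Names, order and stem-loops come from GENCODE release 29 (73 of 73 members matched, 43 by identifier) and promoters from RefSeq, which held 55 members. Exons of 17 members overlap another gene, and reads of such or near-identical genes may be split. Python 3.11.15, pandas 2.3.3 and matplotlib 3.10.9 were used.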

Additional observations from a re-analysis of the deposited data

Results flagged for a closer look

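The 14 members below differed between Lat-M2 and Lat-M1 cells by a test of the difference itself (limma, adjusted p below 0.05), so their change against PA was unequal in the Lat-M pairs, which share those PA libraries. Values are log2 fold changes of Lat-M2 over Lat-M1 on TPM.

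Among core histone genes of type H4, HIST1H4C was higher in Lat-M2 cells by 0.50, HIST1H4D by 0.49, HIST1H4H by 0.35 and HIST1H4B by 0.21; the last 2 missed the threshold after scaling (adjusted p = 0.085 and 0.054). Of the linker histone genes, HIST1H1B was higher by 0.72 and HIST1H1D by 0.55. Of the H3 genes, HIST1H3F was higher by 0.74 and HIST1H3J by 0.53, and HIST1H3E was lower, at -0.26. Of the H2B genes, HIST1H2BB was higher by 0.91, HIST1H2BH by 0.68 and HIST1H2BN by 0.33. Of the H2A genes, HIST1H2AK was higher by 0.65 and HIST2H2AB by 0.48. In the annotation, exons of HIST1H2BN overlap those of HIST1H2AK and HIST1H2AL. Exons of HIST1H3J overlap those of HIST1H2AM, and exons of HIST2H2AB those of BOLA1. Reads may be split between such overlapping genes.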

How the results depend on the processing

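Direction and call were compared across the alternatives, other than the scaled fits with a library left out or with the block. Both were kept throughout by 6 of 12 named members called in Lat-M1 against PA (HIST1H1B, HIST1H2BB, HIST1H2BH, HIST1H3F, HIST1H4C and HIST1H4D). The same held for 7 of 9 in Lat-M2 against Lat-M1 (these 6 and HIST1H1D) and for 0 of 2 in Lat-M2 against PA. Of the values that changed sign, HIST1H1C in Lat-M1 over PA was -0.16 after scaling and -0.18 without the structural RNAs, against 0.02 on TPM. For Lat-M2 against PA (2 members), the count was 4 with no filter, 7 with a minimum mean of 5 TPM, and 1 to 3 with 1 library left out; after scaling (2) it was 0 to 4 (0 without Lat-M2 library 1, 4 without PA library 1, 1 without PA library 3). For Lat-M1 against PA (15) it was 7 to 15 with 1 library left out, and after scaling (18) 9 to 19 (9 and 10 without Lat-M1 libraries 1 and 2). For Lat-M2 against Lat-M1 (14) it was 22 without the structural RNAs and 8 to 18 with 1 library left out, and after scaling (14) 9 to 17; the lowest values were without Lat-M1 library 1. For Lat-M against PA (0) it was 8 as a contrast in the fit of 3 groups, which called 5040 of all genes up and 1066 down. The count was 0 to 1 with 1 library left out (1 without Lat-M2 library 2). The log2 ratio of summed histone TPM was -0.017 after scaling and 0.032 without the structural RNAs for Lat-M2 over PA (0.09 to 0.17 with 1 library left out), -0.25 and -0.27 for Lat-M1 over PA (-0.11 to -0.04), and 0.30 without them for Lat-M2 over Lat-M1 (0.18 to 0.23). The cause of these changes was not tested. The numbers of all genes called moved in these fits too. For Lat-M2 against PA with no filter, 1250 of 32367 genes rose and 279 fell. With a minimum mean of 5 TPM, 2455 of 11444 rose and 344 fell. Without the structural RNAs, 4401 of 17755 genes were higher and 3090 lower in Lat-M2 than in Lat-M1 cells. Deviations from group means were nearly uncorrelated between same-numbered libraries (r -0.08 to 0.03). With 2 libraries in a Lat-M group these deviations mirror each other, so the values cannot settle whether the numbers pair libraries. With a replicate block the count for Lat-M2 against PA was 1 on TPM and 0 after scaling. Of all genes, 755 rose and 188 fell with that block on TPM, and 284 and 405 after scaling. Depth is unknown, and 2 or 3 libraries a group limit what could be called; a fit with 1 library in a Lat-M group takes its spread from the other groups. The scaled fits with a library left out or with the block were chosen after seeing the data.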
